A study of Saccharomyces cerevisiae with 4 samples.

Results

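Polyamines are small positively charged molecules that bind nucleic acids and that yeast makes from ornithine and S-adenosylmethionine. Ornithine decarboxylase (SPE1) makes putrescine, and spermidine synthase (SPE3) and spermine synthase (SPE4) then add aminopropyl groups that S-adenosylmethionine decarboxylase (SPE2) prepares. The polyamine oxidase FMS1 turns spermine back into spermidine and releases the aldehyde from which yeast makes beta-alanine. Antizyme, the product of OAZ1, binds Spe1 and delivers it to the proteasome, and OAZ1 itself is read in full only by ribosomes that change frame, which polyamines favour. The 6 genes described here are OAZ1 and these 5 enzyme genes, chosen by their systematic names among the 6600 coding sequences of the deposited table, and all 6 passed the filter on low counts.

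The measurement was ribosome profiling, in which the mRNA fragments held inside ribosomes are sequenced and counted per coding sequence. Both strains were of the 74D-694 background, a haploid laboratory line of Saccharomyces cerevisiae used in prion and stop-codon work. Cultures in synthetic medium were taken in mid-exponential phase and given cycloheximide at 50 µg/mL. The mutant (2 libraries) carried in place of the frameshifted OAZ1 gene a version read in a single frame, and WT (2 libraries) had the natural gene. The labels do not say which base of OAZ1 was altered, whether the mutant was 1 clone, or whether each replicate was a culture of its own; p-values therefore cover only the spread between these libraries, which may be technical. A count reflects mRNA level and ribosomes per mRNA together, and these cannot be told apart here.

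The libraries were of very unequal depth, with 7571371 and 2826895 counts in mutant replicates 1 and 2, against 29671498 and 10202557 in WT replicates 1 and 2. HIS3, which is deleted in 74D-694, had 0 counts in all 4 libraries, which allows up to 1.06 CPM (counts scaled to a library total of 1000000) in the shallowest. URA3, disrupted in that background, had 215 and 52 counts in mutant and 938 and 301 counts in WT. WT replicate 1 stood apart: its log2 difference to WT replicate 2 had an SD of 0.509 over the 4603 genes averaging 100 or more counts, while mutant replicate 1 and WT replicate 2 differed by an SD of 0.223. Coding sequences with a hydrophobic stretch (a mean Kyte-Doolittle hydropathy of at least 1.6 over 19 residues) held 17.2% and 16.9% of counts in mutant, against 20.7% and 16.6% in WT replicates 1 and 2. None of the 6 genes has such a stretch, the highest value being 1.38 in SPE4.

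The site that the mutation concerns is shown because the 2 strains differ in how ribosomes pass it. OAZ1 (YPL052W) is on chromosome XVI, plus strand, and its annotated coding sequence joins 69 codons, from 458799 to 459005, to 224 codons, from 459007 to 459678. The T at 459006, left out of the join, is the start of a TGA stop codon at 459006 to 459008. The reference sequence (RefSeq, build R64, chrXVI:458961-459051, plus strand) has in capitals the last codon before the stop, the stop and the base after it.
OAZ1 frameshift site: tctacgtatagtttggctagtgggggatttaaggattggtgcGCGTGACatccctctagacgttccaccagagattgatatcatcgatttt
Of 6008 annotated nuclear coding sequences, 0 end in GCGTGAC, read on the coding strand as the final sense codon, the stop and the following base. Within the coding sequences, 87 (1.45%) hold these bases in any frame. How many such endings would be expected was not tested. The bases after the skipped T make up 76.5% of the annotated OAZ1 coding sequence. Each deposited count covers the whole coding sequence and does not separate ribosomes on the 2 sides of the site, and whether reads that cross the altered site were counted in the mutant was not tested.

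OAZ1 had more CPM in the mutant than in WT, with the groups apart, but it was not called when p-values were adjusted over all genes. OAZ1 had 160 and 49 counts in mutant replicates 1 and 2, against 379 and 110 counts in WT replicates 1 and 2. In CPM after TMM scaling, OAZ1 stood at 20.5 and 18.1 in mutant, against 12.7 and 10.7 in WT. The lower mutant library was above the higher WT library, as it was for 19.1% of the 5233 genes tested. The mean was 19.3 ± 1.70 CPM in mutant and 11.7 ± 1.39 CPM in WT (SD, n = 2 each). The log2 fold change, mutant minus WT, was 0.73 (SE 0.22, 95% interval 0.18 to 1.28), or 1.66-fold (edgeR quasi-likelihood adjusted p = 0.755).

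Across all genes, edgeR called 0 of 5233 at an adjusted p under 0.05 (percent called, 0), and 5.45% had an unadjusted p under 0.05, 1.72% with the higher value in mutant. The median log2 fold change over all genes was -0.01. By unadjusted p (0.017, edgeR), OAZ1 ranked 51 among the 5233 genes, and 0.612% of genes had a log2 fold change at least as high as OAZ1. Counting both directions, 8.64% of genes had a log2 fold change at least as large in size. DESeq2 called 0 genes higher and 4 (0.0683%) lower, none of them among the 6. With single libraries left out, the log2 fold change of OAZ1 stayed between 0.63 and 0.87. Without WT replicate 2 OAZ1 was called (0.63, edgeR adjusted p = 0.0319), in a fit that called 4.35% of genes higher and 14.9% lower, and in that fit WT rests on replicate 1, the library that stood apart. Without WT replicate 1 OAZ1 was at 0.87 (edgeR adjusted p = 0.0769), and 0.325% of genes were called higher.

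**Figure D1:**
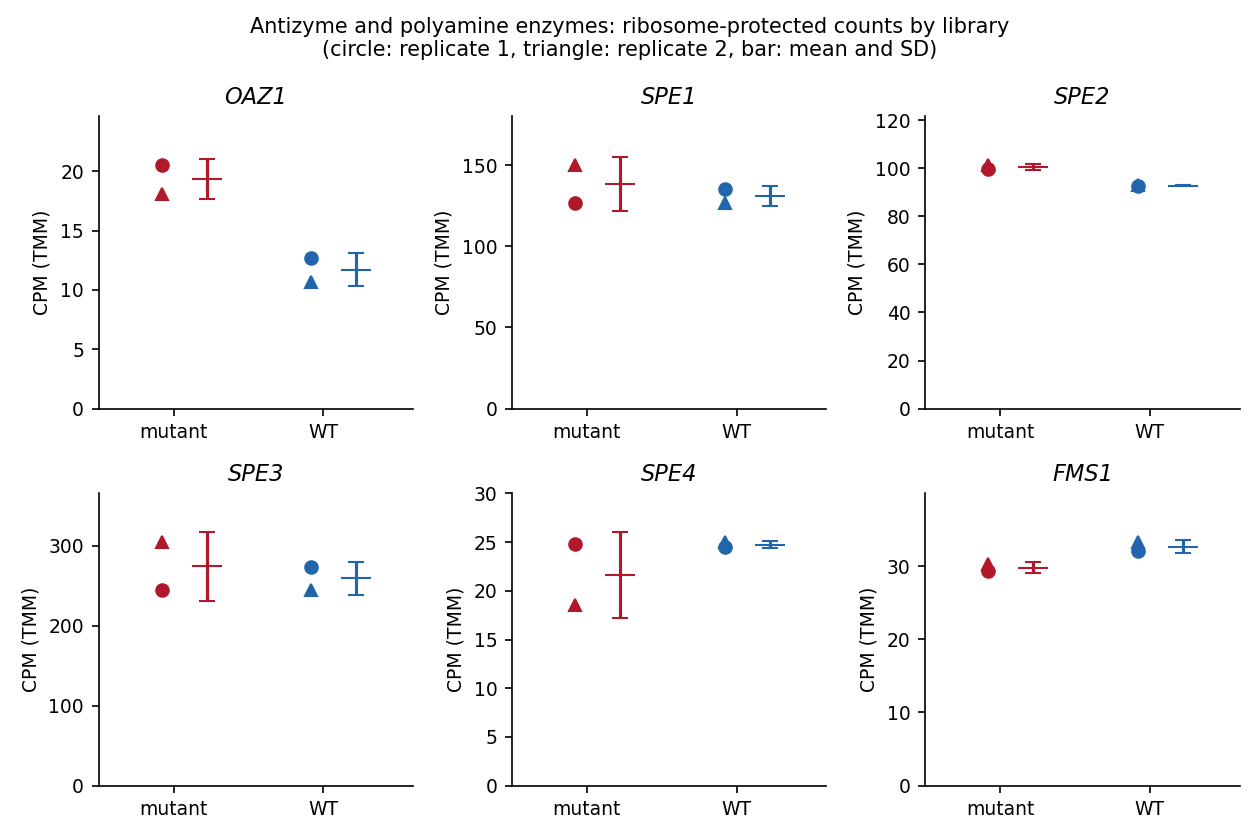
CPM after TMM scaling (vertical axes, from 0) of the 6 genes in mutant (red, left) and WT (blue, right); circles are replicate 1, triangles replicate 2, and the bars the mean and SD of 2 libraries. OAZ1 at 20.5 and 18.1 CPM in mutant lies clear of 12.7 and 10.7 CPM in WT, while SPE1, SPE3 and SPE4 overlap between the strains.

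SPE1 (YKL184W), the enzyme that antizyme targets, showed no detectable difference in ribosome-protected counts. It lies on the plus strand of chromosome XI, from 96757 to 98157, and had 989 and 406 counts in mutant, against 4053 and 1305 counts in WT. These were 127 and 150 CPM in mutant, against 135 and 127 CPM in WT. The groups overlapped, and in these CPM mutant replicate 2 was the highest of the 4 libraries. SPE1 averaged 139 ± 16.5 CPM in mutant and 131 ± 6.02 CPM in WT (SD, n = 2 each). The difference was 0.08 on the log2 scale (SE 0.17, edgeR adjusted p = 0.944). The 95% interval ran from -0.34 to 0.49, so that a ratio of mutant to WT between 0.793-fold and 1.40-fold was not separated from no change. Ribosome profiling does not measure the amount of Spe1 protein that the proteasome leaves.

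SPE2 (YOL052C) was slightly higher in both mutant libraries in CPM after TMM scaling, without passing the test. Its single coding part lies on the minus strand of chromosome XV, from 232446 to 233636, with 776 and 274 counts in mutant, against 2771 and 956 counts in WT. SPE2 stood at 99.6 and 101 CPM in mutant, against 92.6 and 93.0 CPM in WT. On this scale both strains were tight, and the groups did not overlap. The log2 fold change was 0.11 (95% interval -0.27 to 0.50, edgeR adjusted p = 0.891). Mutant libraries both above WT were found for 19.1% of all genes.

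SPE3 and SPE4 encode the 2 aminopropyltransferases, related proteins with 48.8% identical residues over a 301-column alignment of their translated coding sequences. Of the 28-base words of SPE3 or SPE4, 0% occur exactly in another annotated coding sequence. Shorter reads and matches that allow mismatches were not tested. The longest run of bases they share is 15 long, shown here in capitals with 12 bases on each side in coding orientation (RefSeq, build R64; SPE3 at chrXVI:684895-684933 and SPE4 at chrXII:433165-433203, both minus strand).
SPE3: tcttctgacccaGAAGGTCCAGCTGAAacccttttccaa
SPE4: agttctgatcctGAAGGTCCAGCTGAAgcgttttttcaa

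SPE3 (YPR069C, chromosome XVI, 684556 to 685437, minus strand), which makes spermidine, was the most heavily counted of the 6 genes. It had 1901 and 823 counts in mutant, against 8174 and 2516 counts in WT. These were 244 and 304 CPM in mutant, against 273 and 245 CPM in WT. In these CPM the mutant libraries enclosed both WT libraries, an order that changed with the scaling. The log2 fold change was 0.08 (95% interval -0.34 to 0.50, edgeR adjusted p = 0.944).

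SPE4 (YLR146C, chromosome XII, 432823 to 433725, minus strand), which makes spermine, had 193 and 50 counts in mutant, against 732 and 257 counts in WT. It stood at 24.8 and 18.5 CPM in mutant, against 24.5 and 25.0 CPM in WT. Mutant replicate 2 alone was low, and mutant replicate 1 lay between the WT libraries. In mutant replicate 2 the 50 counts correspond to 17.7 CPM as a plain share of the library total, with a 95% Wilson interval of 13.4 to 23.3 that covers counting error only. The log2 fold change was -0.17 (95% interval -0.71 to 0.37, edgeR adjusted p = 0.888), and without mutant replicate 2 it was 0.0029.

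FMS1 (YMR020W, chromosome XIII, 315377 to 316903, plus strand) was marginally lower in both mutant libraries. It had 228 and 82 counts in mutant, against 959 and 342 counts in WT. FMS1 stood at 29.3 and 30.3 CPM in mutant, against 32.1 and 33.3 CPM in WT. The groups did not overlap, as for 17.9% of all genes in this direction. The log2 fold change was -0.13 (95% interval -0.58 to 0.31, edgeR adjusted p = 0.891).

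**Figure D2:**
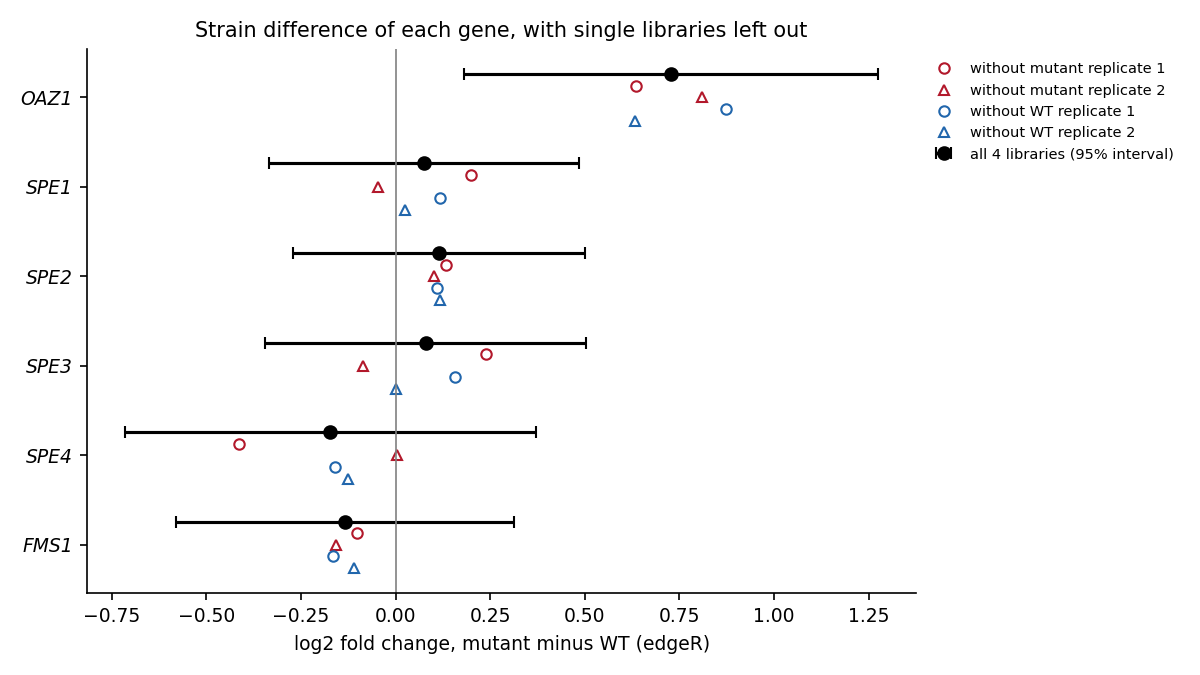
Log2 fold change, mutant minus WT, from edgeR (horizontal axis) for each gene; black points with bars are the fit to all 4 libraries with its 95% interval, and open points are fits with 1 library left out. The OAZ1 points lie between 0.63 and 0.87, while SPE1, SPE3 and SPE4 each have points on both sides of 0.

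Of the 6 genes, 0 passed the adjusted threshold. In CPM after TMM scaling 3 had groups that did not overlap (OAZ1 and SPE2 higher, FMS1 lower), as for 36.9% of all genes. For the enzyme genes, the log2 difference of WT replicate 1 to replicate 2 ran from -0.05 in FMS1 to 0.16 in SPE3. In OAZ1 the log2 difference was 0.24, near the median absolute difference of 0.247 over 4603 genes. Between mutant replicates 1 and 2 it ran from -0.32 in SPE3 to 0.42 in SPE4, against a median absolute difference of 0.179. The enzyme genes that differed most between the mutant libraries, SPE1, SPE3 and SPE4, are those whose groups overlapped in CPM. Overlap depends on that spread, so this is not a separate result.

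Levels of different genes were compared per coding length, as counts per kilobase scaled to 1000000 over all annotated rows (TPM). The order was SPE3, SPE1, SPE2, SPE4, FMS1 and OAZ1, from the mean over the 4 libraries. SPE3 had 251 and 285 TPM in mutant, against 291 and 245 TPM in WT. SPE1 had 82.1 and 88.4 TPM in mutant, against 91.0 and 80.1 TPM in WT. SPE2 had 75.8 and 70.2 TPM in mutant, against 73.2 and 69.0 TPM in WT. These 3 genes kept their places in all 4 libraries, and their ranges did not overlap. Within a gene, libraries did not always rank as in CPM after TMM scaling. By TPM, WT replicate 1 was the highest library for SPE1 and SPE3. For SPE2, mutant replicate 2 was below WT replicate 1 by TPM, so that its groups overlapped. By mean level, SPE3 exceeded 89.5% of the genes tested, SPE1 76.1% and SPE2 73.3%.

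The other 3 genes lay lower and closer together. SPE4 had 24.9 and 16.9 TPM in mutant, against 25.5 and 24.5 TPM in WT. FMS1 had 17.4 and 16.4 TPM in mutant, against 19.7 and 19.3 TPM in WT. OAZ1 had 21.2 and 17.0 TPM in mutant, against 13.6 and 10.8 TPM in WT. The ranges of SPE4 and FMS1 overlapped, although SPE4 was the higher in all 4 libraries. OAZ1 was above FMS1 in both mutant libraries and below it in both WT libraries, so OAZ1 and FMS1 had no fixed order. The full annotated length of OAZ1 was used in both strains, and 76.5% of its bases lie after the skipped T. Levels before and after that base were not separated. In mutant replicate 2 OAZ1, SPE4 and FMS1 lay between 16.4 and 17.0 TPM. OAZ1 had 0.546 and 0.167 counts per codon in mutant and 1.29 and 0.375 in WT, which shows how thin the coverage of these low genes was.

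**Figure D3:**
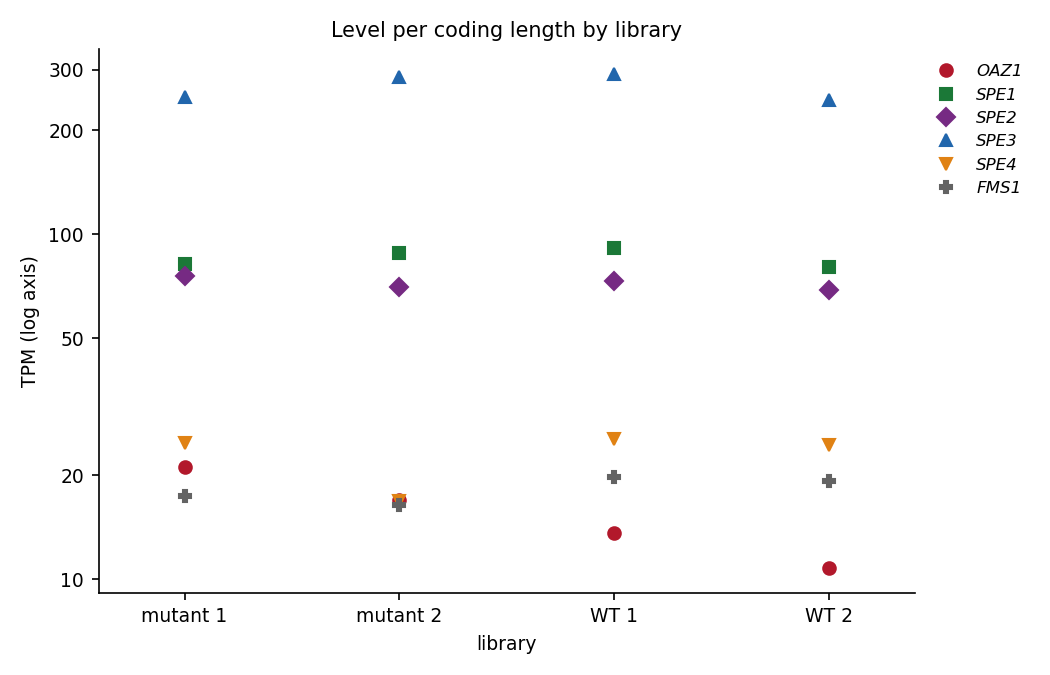
Counts per coding length in TPM (vertical log axis) of the 6 genes in each library (horizontal axis, mutant left of WT). SPE3, SPE1 and SPE2 keep their order in all 4 libraries, and OAZ1 is above FMS1 in the mutant libraries and below it in the WT libraries.

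The make-up of the enzyme set by TPM varied little between libraries, apart from the low SPE4 in mutant replicate 2. SPE1 made up 18.2% and 18.6% of the summed TPM of the 5 enzymes in mutant, against 18.2% and 18.3% in WT. SPE3 made up 55.6% and 59.7% in mutant, against 58.2% and 56.0% in WT. SPE2 made up 16.8% and 14.7% in mutant, against 14.6% and 15.8% in WT. SPE4 made up 5.51% and 3.54% in mutant, against 5.09% and 5.59% in WT. FMS1 held 3.85% and 3.44% in mutant, against 3.94% and 4.40% in WT. Together the 5 genes took 0.0540% and 0.0578% of all counts in mutant, against 0.0562% and 0.0527% in WT.

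A ratio to OAZ1 within a library does not depend on how libraries are scaled. It does use the full annotated length of OAZ1 in both strains. SPE1 had 3.88 and 5.20 times the TPM of OAZ1 in mutant, against 6.71 and 7.44 times in WT. All mutant ratios were below all WT ratios, and the difference of the mean log2 ratios was -0.65, or 0.635-fold. The exact permutation test over libraries gave a two-sided p of 0.333, the smallest that 2 against 2 libraries can give, so the design could not reach 0.05. The ratio of SPE4 to OAZ1 was 1.17 and 0.993 in mutant, against 1.88 and 2.27 in WT. The ratio of FMS1 to OAZ1 was 0.820 and 0.963 in mutant, against 1.46 and 1.79 in WT. All 5 ratios were lower in both mutant libraries, with log2 differences from -0.94 (SPE4) to -0.61 (SPE2) and the same exact p of 0.333 for each, also after Benjamini-Hochberg adjustment over the 5. They share the OAZ1 counts and are not 5 separate results. Because OAZ1 itself was higher in mutant CPM, a gene of unchanged level would also have a lower ratio in mutant. The share of all genes with such a ratio was not computed, so the separation is not a result about the enzymes.

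**Figure D4:**
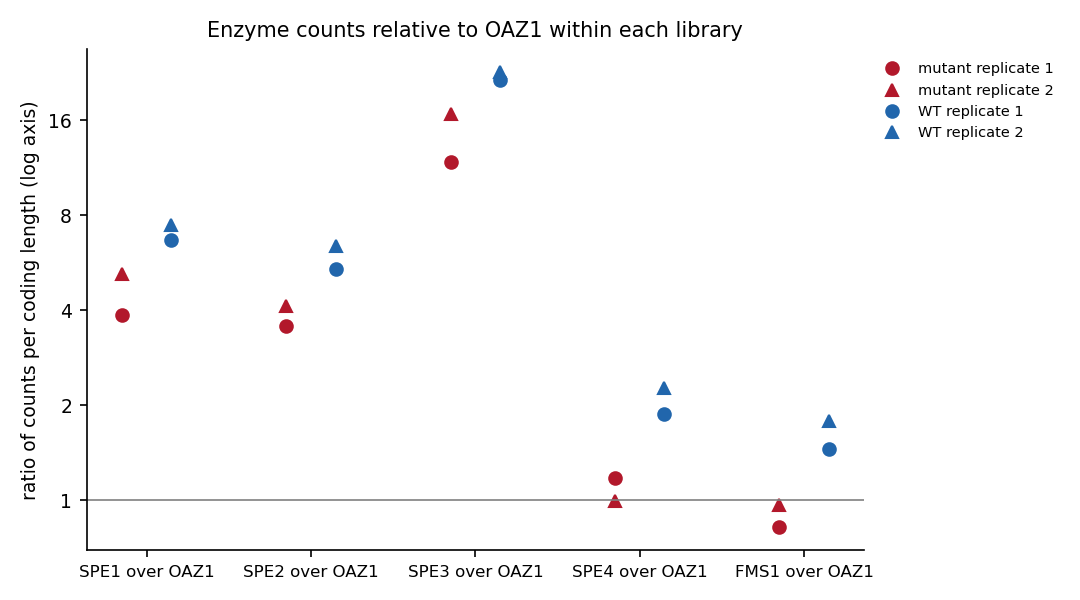
Counts per coding length of each enzyme gene divided by those of OAZ1 in the same library (vertical log axis), for mutant (red, left in each pair) and WT (blue, right). For SPE1 the mutant ratios are 3.88 and 5.20 and the WT ratios 6.71 and 7.44, and in all 5 pairs the mutant points lie below the WT points.

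Besides length and level, the 6 genes were compared for features of sequence and position. No annotated gene overlaps any of them, the nearest being RMP1, 49 bases from SPE4 on the other strand. Their GC content ran from 33.2% in OAZ1 to 43.3% in SPE2, the other 4 lying between 38.9% and 39.9%. OAZ1 and SPE3 share chromosome XVI, and the others are on 4 different chromosomes. OAZ1 is the only one of the 6 with a coding sequence in 2 parts.

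The genes closest to OAZ1 in pattern were found by the Euclidean distance between log2 CPM profiles, each centred on its own mean over the 4 libraries, among 4603 genes. BTS1, which makes geranylgeranyl diphosphate, lay at a distance of 0.18, with 13.7 and 13.7 CPM in mutant against 9.76 and 8.37 CPM in WT. The next were PXP2, a peroxisomal protein, at 0.25 and IPI3, of the Rix1 complex in ribosome assembly, at 0.27. Only 1 gene lay within 0.2 of OAZ1. SPE1 had 556 genes within 0.2, the nearest being UFO1, an F-box protein, at 0.03, then TDH3, a glyceraldehyde-3-phosphate dehydrogenase with close paralogs, and GPX2, a glutathione peroxidase, both at 0.04. SPE3 lay at 0.07 from SPE1, and OAZ1 was between 0.65 (SPE2) and 0.96 (SPE4) from the enzyme genes. With 4 libraries these distances only describe the profiles.

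In the routes around the pathway, 0 of the 83 tested genes in 7 lists passed the adjusted threshold in either direction with all 4 libraries, where 0 of 5233 genes did. Without WT replicate 2 there were 14 calls, 1 higher and 13 lower, in the fit that called 4.35% of all genes higher and 14.9% lower. Without WT replicate 1 there were 2, both higher (ARG7 and BAT1), where 0.325% of all genes were called higher, and without either mutant library there were 0. The 10 genes of ornithine and arginine supply had a median log2 fold change of 0.13, 7 of them above 0, where 48.4% of all genes were. ORT1, the mitochondrial ornithine exporter, had 43.3 and 47.7 CPM in mutant, against 33.5 and 32.4 CPM in WT, a log2 fold change of 0.46 (edgeR adjusted p = 0.755). ARG4, argininosuccinate lyase, was at 0.41 (edgeR adjusted p = 0.755). Without WT replicate 1 the median was 0.33, and without WT replicate 2 it was -0.0064. ARG7, ornithine acetyltransferase, was called higher without WT replicate 1 (0.74, edgeR adjusted p = 0.0191), and ARG56 and ARG8, of the acetylated steps to ornithine, were called lower without WT replicate 2 (-0.94 and -0.83).

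The S-adenosylmethionine supply list had a median of 0.08, with 5 of 5 genes above 0, led by ADO1, adenosine kinase (0.28), and SAH1, S-adenosylhomocysteine hydrolase (0.19). Leaving out WT replicate 1 gave a median of 0.030, and leaving out WT replicate 2 gave 0.15. Methionine salvage, which recovers the methylthioadenosine released by SPE3 and SPE4, had 7 of 9 above 0 and a median of 0.19, which was 0.32 without mutant replicate 1 and 0.067 without mutant replicate 2. Its UTR4, the enolase-phosphatase of the route, had 74.1 and 105 CPM in mutant, against 61.3 and 59.3 CPM in WT. MEU1, the phosphorylase that opens it, had 123 and 145 CPM in mutant, against 94.4 and 108 CPM in WT. For both genes the mutant libraries were above WT, as for 3 of the 9 in the list and 19.1% of all genes. Neither passed with all libraries (log2 fold changes 0.56 and 0.40, edgeR adjusted p = 0.755 each). In fits that leave 1 WT library, UTR4 was at 0.53 without WT replicate 2. BAT1, a branched-chain aminotransferase, was at 0.70 without WT replicate 1.

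Spermidine is used to make hypusine in eIF5A, and all 4 genes of that list had log2 fold changes above 0 and groups that did not overlap, with a median of 0.21, where 19.1% of all genes were higher without overlap. LIA1, the hydroxylase of the last step, was at 0.28, and ANB1, an eIF5A gene with 15 to 67 counts per library, at 0.67. ANB1 and its close paralog HYP2 are both in the list, and how reads matching both were counted is not given. The values of both are therefore uncertain, and the 4 genes may not be separate results. The list of acetylation and beta-alanine use, which includes steps downstream of FMS1, had 6 of 11 above 0 and a median of 0.04, which was -0.0096 without mutant replicate 1 and 0.098 without mutant replicate 2. CAB1, pantothenate kinase, had 70.2 and 74.7 CPM in mutant, against 52.4 and 54.9 CPM in WT (log2 fold change 0.43, edgeR adjusted p = 0.755). PAN5, of pantothenate synthesis, was at 0.17.

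Genes of polyamine transport had log2 fold changes below 0 in 11 of 11 tested, with a median of -0.49, and the value rested on WT replicate 1. Without WT replicate 1 the median was 0.04, and without WT replicate 2 it was -0.90. In the fit without WT replicate 2, 9 of 12 transport genes tested were called lower, AGP2 and TPO5 among them, where 14.9% of all genes were. AGP2, a plasma membrane regulator of transport, had 13.6 and 9.25 CPM in mutant, against 22.8 and 18.5 CPM in WT (log2 fold change -0.82, edgeR adjusted p = 0.755). TPO5, an exporter, had 15.1 and 11.5 CPM in mutant, against 33.7 and 13.4 CPM in WT, so that WT replicate 1 alone was high. The proteasome list, which holds the subunits of the complex that degrades Spe1, had 20 of 33 above 0 and a median of 0.04. Leaving out WT replicate 1 gave a median of -0.045 and leaving out WT replicate 2 gave 0.12, while fits lacking mutant replicate 1 or 2 gave 0.077 or -0.014. RPN1, a base subunit, was at -0.36 and PRE1, a core subunit, at 0.25, neither past the threshold with all libraries. Without WT replicate 2, where the list median was 0.12, RPN1 and RPN2, both base subunits, were at -0.52 and -0.48.

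**Figure D5:**
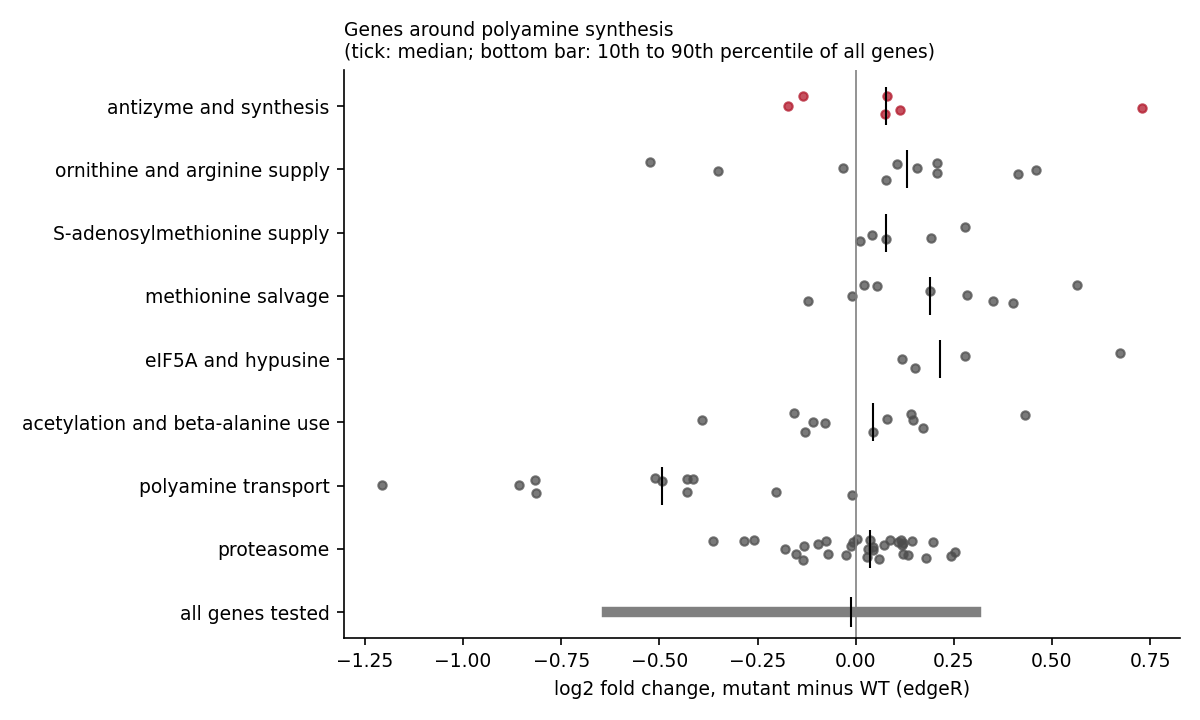
Log2 fold change, mutant minus WT, from edgeR (horizontal axis) for OAZ1 and the enzyme genes (red) and for the genes of 7 lists around the pathway (grey), 1 point per gene with a tick at the median; the bottom row gives the spread of all 5233 genes, the bar from the 10th to the 90th percentile. OAZ1, at 0.73, is the red point farthest from 0, and the 11 transport genes all lie below 0.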

How the data were processed

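The authors deposited raw counts: whole numbers for each coding sequence and library in 1 table. Its data lines have doubled tabs, so names went in header order to the fields that hold a value. Bowtie2, DESeq2 and the build sacCer3 are named in the submitters' processing notes. Not given in the sources used here are versions, read-length filter, strand setting and the treatment of reads with several matches. Of 6600 rows, 5917 matched the R64 annotation by systematic name. Genes were tested with edgeR 4.0.16 (R 4.3.3; quasi-likelihood, TMM, filterByExpr with minimum count 10 and total 15, Benjamini-Hochberg over 5233 genes, two-sided). An SE is the fold change over the root of F. DESeq2 1.42.0 and limma 3.58.1 (prior count 2) were alternatives, with other scalings, no filter, a replicate block and single libraries left out. The test was run on simulated counts. The 6 genes and the lists were chosen with earlier results of these data known. Named genes were the 6, 2 of smallest p per list, 3 nearest in pattern to OAZ1 and to SPE1, and HIS3 and URA3. Python 3.11.15, SciPy 1.17.1 and Biopython 1.88 were used. Same-numbered libraries were not taken as pairs, since no label says that a number marks a shared culture or day.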

Additional observations from a re-analysis of the deposited data

How the results depend on the processing

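The count of genes called over the whole table depended on the libraries and the tool: with single libraries left out it ranged from 0 to 1008, with 39 without WT replicate 1 and 1008 without WT replicate 2, and DESeq2 called 4, against 0 in edgeR with all libraries. OAZ1 kept its direction under all 10 alternatives (log2 fold change 0.63 to 0.87; adjusted p 0.0319 to 0.999) and passed only without WT replicate 2 (0.63). In that fit, WT is a single library assumed to vary like the mutant pair. With single libraries left out SPE1 ranged from -0.048 to 0.20, SPE3 from -0.086 to 0.24 and SPE4 from -0.41 to 0.0029, each crossing 0 without mutant replicate 2. SPE2 and FMS1 kept their direction, and none of these 5 genes was called under any alternative. The difference in the SPE1 to OAZ1 log2 ratio was -0.87 to -0.44 with single libraries left out. Taking 20 codons off every coding length kept the order of levels. With single libraries left out, list medians crossed 0 for ornithine and arginine supply (-0.0064 to 0.33; below 0 without WT replicate 2), acetylation and beta-alanine use (-0.0096 to 0.098; below 0 without mutant replicate 1), polyamine transport (-0.90 to 0.043; above 0 without WT replicate 1) and the proteasome (-0.045 to 0.12; below 0 without WT replicate 1 and without mutant replicate 2). Of the genes in the lists, 0 were called with all libraries, 14 in the fit lacking WT replicate 2 and 2 in that lacking WT replicate 1. The cause was not tested. With replicate number as a block OAZ1 was at 0.72 (edgeR adjusted p = 0.574) and 0 genes were called; the numbers share no stated origin, and deviations of same-numbered libraries correlated at 0.08 over 4603 genes. Depth limits the low genes, with 49 OAZ1 and 50 SPE4 counts in mutant replicate 2.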
